A study of Homo sapiens with 18 samples.

Results

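Knockdown of FOXA1 was compared with a control vector in LNCaP cells, a human line of metastatic prostate cancer with luminal epithelial features, by RNA sequencing of 3 shFOXA1 libraries and 3 control libraries. All 12900 genes with at least 1 RPKM (reads scaled by gene length and library size) in at least 3 of the 18 libraries of the study were taken, of 26443 genes with a value. The shFOXA1 cells carried a lentiviral shRNA against FOXA1, and the control cells carried the pGIPZ control shRNA vector. Both groups were labelled WT, were infected for 5 days, received 100 µM CoCl2 for the last 24 h and received no KC7F2. CoCl2 is a chemical mimic of hypoxia that stabilises the HIF1A protein, and every library received it. The other 12 libraries shared the spread estimate of the fit, and they were read as 2 further comparisons of the same FOXA1 shRNA: shFOXA1 with 40 µM KC7F2 for 24 h against control vector with KC7F2, a small molecule used as a HIF1A inhibitor, and shFOXA1 together with shHIF1A against shHIF1A alone. The labels name 1 FOXA1 shRNA condition and speak of triplicates. Whether these were separate cultures is not said, and the p-values cover the spread of the libraries, which may be technical.

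FOXA1 is a pioneer factor of the forkhead family that binds nucleosomal DNA and opens it for other factors. In luminal prostate epithelium it works with nuclear hormone receptors, and it is known for holding the luminal program in place. HIF1A is the oxygen-regulated subunit of the factor that adapts cells to low oxygen, and the series asked what FOXA1 does to that program.

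The targeted gene was lower in each shFOXA1 library. FOXA1 stood at 35.1, 32.4 and 34.8 RPKM in the shFOXA1 libraries, against 71.6, 114 and 107 RPKM in the control libraries, and the groups did not overlap. HIF1A mRNA stood at 88.6, 81.6 and 99.5 RPKM in shFOXA1, against 13.96, 27.3 and 27.99 RPKM in control, and rose by 1.9995 ± 0.23 on the log2 scale (limma, adjusted p = 8.36e-06). The depth recovered from the steps of low values, in units of 1000 reads, was 5188 to 7729 in shFOXA1 and 10351 to 11628 in control, so low genes rest on fewer reads after FOXA1 knockdown. Short genes stood higher in control library 1: there the 25% shortest coding genes exceeded the 25% longest by 0.49 log2 units, each gene taken against its mean over all libraries, against -0.19 to -0.04 in shFOXA1 and -0.15 and 0.05 in the other control libraries. The luminal keratin KRT8 stood at 239.8 ± 20.3 RPKM in shFOXA1 and 181 ± 44.8 RPKM in control, and the prostate homeobox factor HOXB13 at 118 ± 3.40 RPKM in shFOXA1 and 97.0 ± 11.2 RPKM in control (SD, n = 3 each, as for later means). Of 9 luminal markers, all passed the filter, 2 rose and 3 fell, with 0 rises when any 1 shFOXA1 library was left out, and with summed levels of 1385 to 1531 RPKM in shFOXA1 and 1655 to 2116 RPKM in control. Both markers given above stood higher in shFOXA1, whereas TMPRSS2, given below, was among those that fell. The HOXB13 call was also lost without control 3 (adjusted p = 0.0816) and with the 2 groups fitted alone (0.168). The basal keratin KRT5 and the leukocyte genes PTPRC, CD3E and MS4A1 were listed at 0 in all 6 libraries, and the other fibroblast, endothelial and leukocyte markers below the filter stayed at or under 0.51 RPKM, with LYZ the highest. Of those that passed it, 2 fibroblast markers and 1 endothelial marker, VWF, showed no call. CD68, a lysosomal protein of macrophages that other cells also make, was the exception among leukocyte markers and rose with FOXA1 knockdown, at 19.3, 18.1 and 18.1 RPKM in shFOXA1, against 7.68, 5.44 and 6.37 RPKM in control.

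FOXA1 knockdown changed 24.1% of the genes tested at an adjusted p below 0.05 (limma, Benjamini-Hochberg over 12900 genes): 1228 rose (9.52%) and 1883 fell (14.6%). Large rises outnumbered large falls: 369 genes rose at least 2-fold (2.86%) and 324 fell at least 2-fold (2.51%), with 93 genes up at least 4-fold (0.721%) and 24 down at least 4-fold (0.186%). Most changes were small: the median change of all genes was -0.09 on the log2 scale, and the median absolute change of called genes was 0.63. The split between rises and falls moved with scaling, to 1535 rises and 1477 falls with median-ratio scaling and 1534 and 1586 with quantile normalisation. Without regard to the test, 1833 genes (14.2%) were higher in every shFOXA1 library than in any control library, and 2698 (20.9%) were lower in every one. Protein-coding genes were 11087 of the 12900 tested, and of these 1143 rose and 1742 fell. Of 293 microRNA genes 5 rose and 3 fell. Fold changes were taken between log2(RPKM + 0.5) values, so those of low genes are understated, and without strand information genes that overlap others cannot be read apart. In bulk RNA, a lower level can be fewer cells that make a transcript or less of it per cell, which cannot be told apart here.

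**Figure D1:**
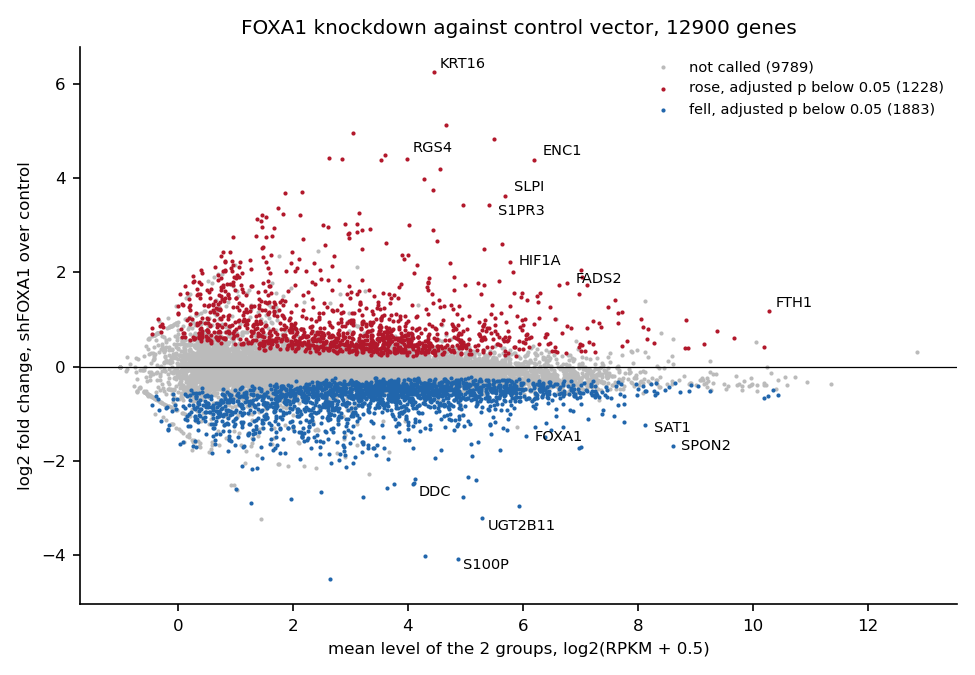
Each point is 1 of 12900 genes, by its mean level in log2(RPKM + 0.5) on the horizontal axis and its log2 fold change, shFOXA1 over control, on the vertical axis, in red where it rose and blue where it fell at an adjusted p below 0.05. The 1228 rises reach further from 0 than the 1883 falls, with KRT16 highest at 6.25. DDC is labelled at -2.49, and some falls, such as that of UGT2B11, are larger.

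The largest rises were of genes that control cells barely used or held at a few RPKM. ENC1 (chr5:74627406-74641424, hg38), an actin-binding protein of the kelch family, had the smallest p of all genes: it stood at 136, 139 and 146 RPKM in shFOXA1, against 5.78, 6.42 and 6.48 RPKM in control. Its libraries were tightly grouped on both sides, and it rose by 4.39 ± 0.08 on the log2 scale, 20.9-fold (adjusted p = 1.81e-15). RGS4 (chr1:163068775-163076802), which shortens G protein signals, stood at 32.4, 27.5 and 29.7 RPKM in shFOXA1, against 1.04, 0.846 and 0.902 RPKM in control, a rise of 4.41 ± 0.15 (adjusted p = 8.19e-12). A receptor for the lipid mediator sphingosine-1-phosphate, S1PR3, rose with it: 79.0, 75.2 and 78.5 RPKM in shFOXA1, against 5.38, 7.55 and 7.64 RPKM in control, 10.7-fold (adjusted p = 7.84e-11). Every shFOXA1 library exceeded every control library by a wide margin for both of these signalling genes.

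Developmental and adhesion genes were among the same 20 largest rises. The homeobox factors IRX3 and BARX2 rose by 3.44 ± 0.17 and 3.26 ± 0.20. IRX3 stood at 53.4, 61.7 and 55.2 RPKM in shFOXA1 and 4.92, 5.01 and 4.41 RPKM in control, and BARX2 at 14.3, 16.2 and 16.1 RPKM in shFOXA1 and 1.10, 1.27 and 1.15 RPKM in control. NRCAM, an adhesion molecule of the immunoglobulin family first known from neurons, was close to the detection limit in control, at 0.0527, 0.0258 and 0 RPKM, and stood at 7.19, 5.86 and 5.84 RPKM in shFOXA1 (rise of 3.69 ± 0.16, adjusted p = 7.84e-11). MGP, a matrix protein that inhibits calcification, stood at 16.3, 14.6 and 8.93 RPKM in shFOXA1, against 0.179, 0.234 and 0 RPKM in control, and was lower in shFOXA1 library 3 than in the other two. The acute-phase inhibitor SERPINA3 stood at 35.9, 37.0 and 34.9 RPKM in shFOXA1, against 1.66, 1.19 and 2.87 RPKM in control, a rise of 3.98 ± 0.20 (adjusted p = 6.29e-10). The other genes of the 20 were the keratins KRT16 and KRT6B, the calgranulins S100A8 and S100A9, the secreted proteins PI3, PIP, SAA1, SLPI, SBSN and DMKN, the ligand WNT11 and the small chaperone CRYAB. Reads of KRT16, KRT6B and SAA1 can be shared with near-identical copies, which makes their levels uncertain.

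**Figure D2:**
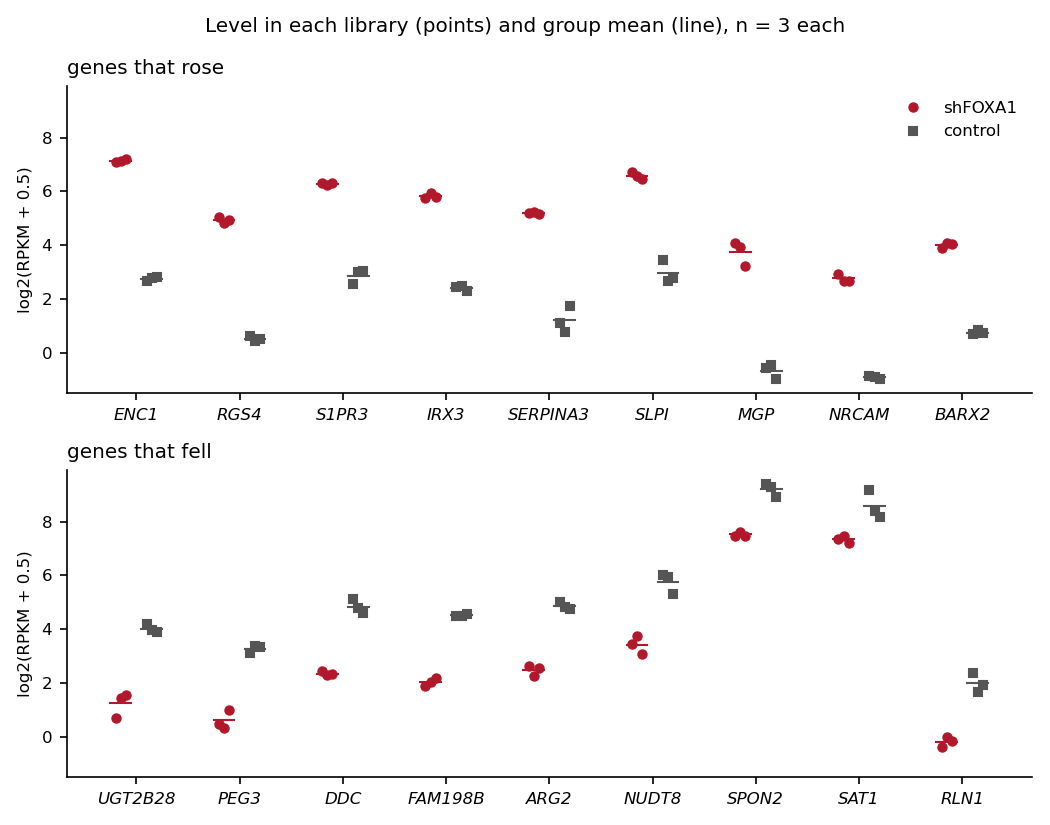
Levels of 9 genes that rose (top) and 9 that fell (bottom), in log2(RPKM + 0.5), with 1 point per library, shFOXA1 in red left of control in grey, and a line at the mean of the 3. The 2 groups do not overlap for any of the 18 genes, which was a condition of choice for all but SAT1 and SPON2. The narrowest gaps are those of SAT1 and SPON2.

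Metabolic enzymes were among the 20 largest falls. ARG2 (chr14:67619798-67651720), the mitochondrial arginase, stood at 5.71, 4.30 and 5.37 RPKM in shFOXA1, against 32.0, 27.8 and 26.3 RPKM in control. It fell by 2.38 ± 0.17 on the log2 scale, with 19.2% left (adjusted p = 3.78e-08). DDC, the decarboxylase that makes dopamine and serotonin, stood at 4.91, 4.35 and 4.51 RPKM in shFOXA1, against 34.4, 27.3 and 23.5 RPKM in control, a fall of 2.49 ± 0.18 (adjusted p = 2.51e-08). Genes of the 20 were chosen to lie apart between groups, so the lack of overlap of these enzymes is no separate result. UGT2B28, which glucuronidates steroids, fell by 2.77 ± 0.20, though its reads can be shared with the other UGT2B genes, and the nudix hydrolase NUDT8 fell by 2.34 ± 0.21.

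The remaining large falls were of mixed kinds. PEG3, an imprinted zinc finger gene expressed from the paternal copy, stood at 0.892, 0.762 and 1.499 RPKM in shFOXA1, against 8.23, 9.83 and 9.53 RPKM in control, and fell by 2.67 ± 0.18 (adjusted p = 1.61e-08). FAM198B stood at 3.19, 3.55 and 4.04 RPKM in shFOXA1, against 21.9, 21.99 and 23.4 RPKM in control, with 17.8% left. The mesoderm factor MESP1 stood at 6.48, 14.1 and 11.5 RPKM in shFOXA1, against 90.7, 61.8 and 31.7 RPKM in control (adjusted p = 0.000137). The peptide hormone gene RLN1, relaxin, fell by 2.18 ± 0.22, from low levels, and the long noncoding RNA DRAIC fell by 2.16 ± 0.31. The microRNA gene MIR6776 was listed at 0 in all 3 shFOXA1 libraries, against 5.97, 1.46 and 1.64 RPKM in control, and its call was lost when the 3 libraries with more short-gene signal were left out (adjusted p = 0.0607). S100P, SLC45A3, UGT2B11, ACPP, the TARP locus and the small nucleolar RNAs SNORD28 and SNORD14E also belonged to the 20, and some members of the 20 are not described. SNORD14E no longer passed when control 1 was left out (adjusted p = 0.0587), nor without control 3 (0.0516) or the 3 libraries with more short-gene signal (0.0769).

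Changes in abundance picked out other genes, because a modest fold of an abundant transcript moves more RNA. FTH1, the heavy chain of the iron store ferritin, stood at 1629, 1975 and 1585 RPKM in shFOXA1, against 919, 819 and 588 RPKM in control, and rose by 1.18 ± 0.17 (adjusted p = 7.12e-05). It has many processed copies in the genome, so its level is uncertain. The matrix protein FN1, fibronectin, stood at 614, 571 and 632 RPKM in shFOXA1 and 213, 352 and 377 RPKM in control, and control library 1 was lowest. SYT4, a vesicle protein, SELENBP1, a selenium-binding protein, and the tetraspanin TSPAN13 rose by 0.60 ± 0.10, 1.01 ± 0.10 and 1.40 ± 0.12. ALDOA, ENO1 and GAPDH, 3 enzymes of glycolysis, completed the 8 largest gains. GAPDH rose by 0.43 ± 0.13 (adjusted p = 0.0247), a call lost without control 1 (0.0561), shFOXA1 1 (0.105) or shFOXA1 2 (0.0561), while ENO1 (adjusted p = 0.00243) lost its call only with the 2 groups fitted alone (0.0772).

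Of the 8 largest losses of level, 2 kept their call with each of the 6 libraries left out in turn. SPON2, a secreted matrix protein, stood at 176, 197 and 179 RPKM in shFOXA1, against 677, 623 and 482 RPKM in control, and fell by 1.68 ± 0.14 (adjusted p = 1.24e-07). SAT1, the acetyltransferase that starts polyamine breakdown, stood at 161, 177 and 147 RPKM in shFOXA1, against 575, 333 and 285 RPKM in control, and fell by 1.23 ± 0.21 (adjusted p = 0.000391). The other 6 were the ribosomal protein genes RPL35A, RPS12, RPLP1, RPL27, RPS15A and RPL41, whose calls (adjusted p of 0.0145 to 0.0372) were all lost without control 1.

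Genes of chromosome segregation fell nearly as a whole. Of 62 tested genes of the kinetochore, spindle and cytokinesis list (64 listed), 57 fell and 0 rose, with a median of -1.20 against -0.09 over all genes. Over all genes 14.6% fell and 9.52% rose, the shares beside which each list count below is to be read. A gene high in a single group can pass the filter, so list counts can lean towards such genes. BUB1B, a checkpoint kinase that holds mitosis until chromosomes attach, stood at 1.49, 1.75 and 2.17 RPKM in shFOXA1, against 6.02, 6.57 and 6.53 RPKM in control (adjusted p = 2.04e-07). BIRC5, or survivin, a subunit of the chromosomal passenger complex, stood at 4.71, 3.70 and 4.51 RPKM in shFOXA1, against 20.9, 13.2 and 13.03 RPKM in control. CDC20, the activator of the anaphase-promoting complex, stood at 5.12, 3.82 and 4.39 RPKM in shFOXA1, against 17.6, 17.02 and 12.8 RPKM in control. No library of one group overlapped the other for these 3 genes. CCNB2, a mitotic cyclin, fell by 1.92 ± 0.21, with 26.5% left. The 5 members without a call were BUB3, PLK4, KIF22, ASPM and INCENP, with changes of -0.30, -0.61, -0.28, -0.70 and -0.32. No member was higher after FOXA1 knockdown.

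Many promoters of mitotic genes share a cell cycle homology region, TTTGAA, and a CCAAT box bound by NF-Y. The first is bound by the DREAM complex, which represses these genes in resting cells. Promoter windows of 300 bases (250 before and 50 after the gene start; RefSeq, GRCh38.p14) were searched on both strands for these letters, using the 6645 tested genes with exactly 1 window. The cell cycle homology region was present in 32 of 43 windows of the mitotic list (74.4%), against 9.01% of all tested genes. CCAAT was present in 74.4% of the mitotic windows, against 38.6% of all. Both were present in 55.8%, against 4.18%. Among genes that fell but were not on the list, 11.6% of 981 windows held TTTGAA, and among those that rose, 8.55% of 620. The windows of 4 listed genes that fell and hold both motifs are shown with TTTGAA and CCAAT, or their reverse complements, in capitals.
CDC20 (chr1:43358731-43359030, plus strand): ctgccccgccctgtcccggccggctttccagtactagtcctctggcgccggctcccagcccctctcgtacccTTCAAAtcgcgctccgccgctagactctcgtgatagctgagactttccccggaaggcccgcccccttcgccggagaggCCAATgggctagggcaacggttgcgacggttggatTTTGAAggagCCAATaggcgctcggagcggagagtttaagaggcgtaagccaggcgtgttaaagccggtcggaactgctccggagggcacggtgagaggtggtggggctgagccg
CCNB2 (chr15:59104896-59105195, plus strand): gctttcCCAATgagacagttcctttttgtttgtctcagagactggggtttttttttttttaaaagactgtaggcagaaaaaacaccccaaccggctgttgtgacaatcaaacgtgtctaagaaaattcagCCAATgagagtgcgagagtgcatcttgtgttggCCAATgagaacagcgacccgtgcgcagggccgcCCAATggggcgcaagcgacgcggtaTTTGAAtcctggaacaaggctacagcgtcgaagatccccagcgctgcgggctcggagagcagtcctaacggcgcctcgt
CENPF (chr1:214602945-214603244, plus strand): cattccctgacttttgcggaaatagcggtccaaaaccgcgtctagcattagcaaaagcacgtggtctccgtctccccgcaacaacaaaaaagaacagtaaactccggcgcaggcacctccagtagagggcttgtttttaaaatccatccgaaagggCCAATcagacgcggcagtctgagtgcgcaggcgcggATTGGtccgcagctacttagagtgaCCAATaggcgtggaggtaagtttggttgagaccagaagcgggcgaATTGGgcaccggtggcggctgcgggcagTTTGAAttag
PLK1 (chr16:23678639-23678938, plus strand): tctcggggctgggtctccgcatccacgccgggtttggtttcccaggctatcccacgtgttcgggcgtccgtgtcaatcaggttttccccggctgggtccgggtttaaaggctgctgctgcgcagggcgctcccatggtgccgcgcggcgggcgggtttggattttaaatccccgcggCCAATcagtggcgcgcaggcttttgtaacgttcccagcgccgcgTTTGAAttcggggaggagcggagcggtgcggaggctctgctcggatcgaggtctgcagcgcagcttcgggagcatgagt
In CCNB2 and PLK1 the TTTGAA began 29 bases before the gene start, in CDC20 65 bases before it, and in CENPF 41 bases into the gene. Levels of CENPF, a kinetochore protein, were 2.40, 2.74 and 2.55 RPKM in shFOXA1, against 5.37, 7.64 and 7.01 RPKM in control, and those of the mitotic kinase PLK1 were 2.57, 3.46 and 4.34 RPKM in shFOXA1, against 11.4, 12.2 and 10.8 RPKM in control. A match to these letters describes the window and does not show binding.

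**Figure D3:**
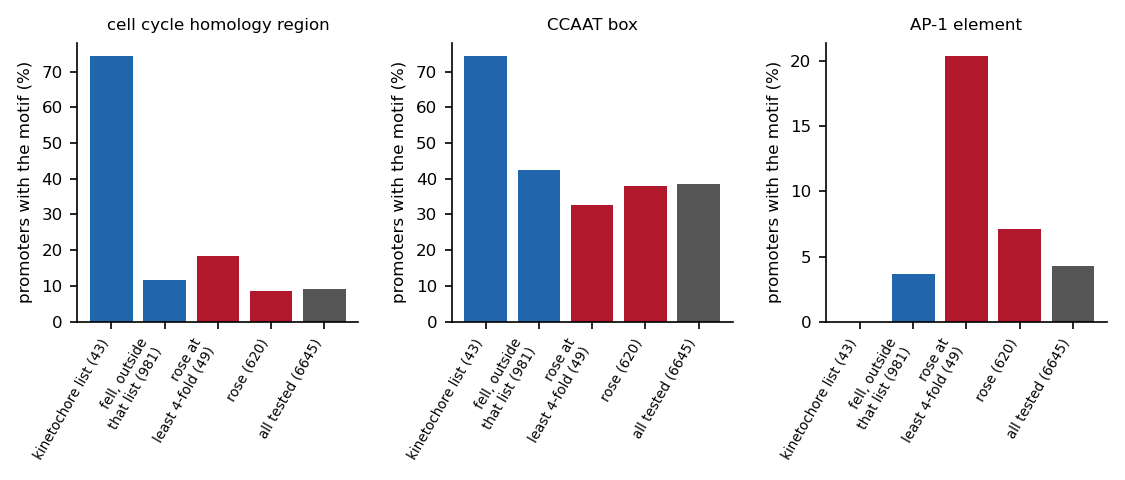
Bars give the percentage of 300-base promoter windows that hold the cell cycle homology region (left), CCAAT (middle) or the AP-1 element (right) in 5 sets of genes, with the number of windows in brackets. The mitotic list stands apart for the first 2 motifs, at 74.4% and 74.4%, and genes that rose at least 4-fold hold the AP-1 element in 20.4%.

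DNA replication and repair genes fell too, with medians nearer to 0. Of 44 DNA replication genes, all tested, 33 fell and 0 rose (median -0.64), and with the 2 groups fitted alone 21 fell. TK1, thymidine kinase, stood at 10.99, 11.6 and 11.3 RPKM in shFOXA1, against 33.2, 32.6 and 22.8 RPKM in control, and the origin licensing factor CDC6 at 2.60, 3.49 and 2.34 RPKM in shFOXA1, against 8.27, 8.88 and 7.08 RPKM in control. The helicase factors MCM10 and MCM6 fell by 1.54 ± 0.19 and 0.69 ± 0.09. Of 30 homologous recombination and mismatch repair genes tested (34 listed), 19 fell and 0 rose (median -0.52; 12 fell with the 2 groups fitted alone). BARD1 fell by 1.18 ± 0.12, RAD54L by 1.22 ± 0.15, the exonuclease EXO1 by 1.68 ± 0.23 and FANCI by 1.12 ± 0.16. TTTGAA was present in 1 of 29 windows of the replication list and CCAAT in 58.6%.

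Of 32 regulators of the G1 phase tested (35 listed), 3 rose (9.38%, near the 9.52% of all genes) and 11 fell (34.4%, against 14.6%). CDKN2B, the inhibitor p15 of the cyclin D kinases, stood at 5.61, 6.74 and 5.92 RPKM in shFOXA1, against 0.729, 1.54 and 1.19 RPKM in control, and rose by 2.02 ± 0.15 (adjusted p = 5.56e-08). The other 2 risers were CDKN1A and CCNG2. E2F1, which drives entry into S phase, stood at 3.17, 3.15 and 2.79 RPKM in shFOXA1, against 10.7, 9.14 and 6.79 RPKM in control, and cyclin A2, CCNA2, fell by 1.497 ± 0.17. Cyclin D1, CCND1, showed no call, at 76.1 ± 3.65 RPKM in shFOXA1 and 79.2 ± 8.21 RPKM in control.

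Most tested genes of secreted defence and many of the keratinised epithelium rose. Of 24 listed defence and acute-phase genes, 8 passed the filter on low values, of which 7 rose and 0 fell. Some of these genes passed only through the groups in which they were high, so the count is no measure of the list. SLPI, a protease inhibitor of mucosal secretions, stood at 105, 94.5 and 86.6 RPKM in shFOXA1, against 10.3, 5.79 and 6.34 RPKM in control, and rose by 3.62 ± 0.25. SAA1, a serum amyloid protein of the acute phase, stood at 43.4, 57.6 and 31.4 RPKM in shFOXA1, against 2.73, 1.66 and 1.43 RPKM in control, and its relative SAA2 rose by 2.78 ± 0.17. Of 31 squamous genes, 18 passed the filter, 10 rose and 1 fell, and the same limit holds for this count. IVL, or involucrin, a scaffold of the cornified envelope, stood at 4.14, 4.83 and 4.17 RPKM in shFOXA1, against 0.0824, 0.121 and 0.182 RPKM in control (adjusted p = 1.43e-08). SBSN, suprabasin of the upper epidermis, stood at 6.80, 8.41 and 8.18 RPKM in shFOXA1, against 0.0886, 0.348 and 0 RPKM in control. CSTA, cystatin A, was the faller, at -0.85, and 0 fell without control 3, shFOXA1 1 or shFOXA1 3. The basal keratins KRT14 and KRT15 rose by 1.21 ± 0.22 and 1.52 ± 0.23 from low levels, while KRT5 was listed at 0 and TP63 stayed at or under 0.02 RPKM.

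NF-kB and AP-1 genes, which answer inflammation and acute stimuli, rose in part. Of 20 NF-kB factors and feedback targets tested (22 listed), 11 rose and 0 fell (median 0.61). NFKBIZ, an atypical inhibitor protein that acts in the nucleus, stood at 13.7, 14.01 and 16.3 RPKM in shFOXA1, against 1.32, 1.71 and 1.78 RPKM in control (adjusted p = 1.76e-10). The mitochondrial superoxide dismutase SOD2 stood at 81.1, 88.4 and 86.1 RPKM in shFOXA1, against 30.8, 27.9 and 27.0 RPKM in control. The feedback inhibitor TNFAIP3 and the apoptosis inhibitor BIRC3 rose by 1.55 ± 0.12 and 1.56 ± 0.09. Of 19 AP-1 and immediate early genes tested (25 listed), 11 rose and 1 fell (median 0.45), with 7 rises without control 3 or without shFOXA1 2 and 6 with the 2 groups fitted alone. FOSL2, a FOS family subunit of AP-1, stood at 83.5, 84.5 and 87.6 RPKM in shFOXA1, against 10.1, 16.1 and 15.7 RPKM in control, and rose by 2.59 ± 0.14 (adjusted p = 1.15e-09). Its partner JUN stood at 46.6, 58.7 and 55.2 RPKM in shFOXA1, against 25.6, 32.2 and 23.2 RPKM in control, and PHLDA1 rose by 1.72 ± 0.21.

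The AP-1 element, TGANTCA, was counted in the same promoter windows. It was present in 10 of 49 windows of genes that rose at least 4-fold (20.4%), in 13.8% of 174 windows of those that rose at least 2-fold, and in 7.10% of those that rose at all, against 3.52% of those that fell and 4.27% of all tested genes. Some other letters searched were also more frequent in the same 49 windows than in all, TTTGAA among them (18.4%, against 9.01%). CCAAT was less frequent there (32.65%, against 38.6%). A forkhead motif, TGTTTAC, was present in 1.94% of windows of genes that rose and 1.86% of those that fell, against 2.09% of all. It was present in 0 of the 49. The hypoxia element ACGTG was present in 24.8% of windows of genes that rose, 22.45% of the 49 and 28.1% of all. The 3 largest risers with the AP-1 element in their window are shown with the element in capitals.
PIP (chr7:143131827-143132126, plus strand): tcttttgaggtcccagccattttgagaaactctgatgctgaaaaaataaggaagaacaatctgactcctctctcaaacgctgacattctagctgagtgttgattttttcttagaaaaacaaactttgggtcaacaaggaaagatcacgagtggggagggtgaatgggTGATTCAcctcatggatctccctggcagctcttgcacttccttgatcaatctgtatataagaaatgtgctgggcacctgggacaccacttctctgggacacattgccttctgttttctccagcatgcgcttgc
SBSN (chr19:35528262-35528561, minus strand): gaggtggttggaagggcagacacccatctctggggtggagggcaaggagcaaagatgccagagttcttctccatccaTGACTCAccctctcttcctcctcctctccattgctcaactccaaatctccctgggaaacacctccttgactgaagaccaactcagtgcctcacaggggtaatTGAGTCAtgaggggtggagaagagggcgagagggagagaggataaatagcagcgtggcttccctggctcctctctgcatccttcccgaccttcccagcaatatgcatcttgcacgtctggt
GJA1 (chr6:121435396-121435695, plus strand): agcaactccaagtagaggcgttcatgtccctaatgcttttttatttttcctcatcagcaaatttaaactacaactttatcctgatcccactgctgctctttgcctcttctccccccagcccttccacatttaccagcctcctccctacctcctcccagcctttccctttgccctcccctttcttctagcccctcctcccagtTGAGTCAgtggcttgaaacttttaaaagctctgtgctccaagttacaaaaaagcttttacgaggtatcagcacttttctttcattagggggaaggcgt
PIP, a secretory protein of apocrine glands, stood at 23.5, 21.04 and 23.2 RPKM in shFOXA1, against 1.22, 0.749 and 0 RPKM in control. GJA1, the gap junction protein connexin 43, stood at 3.69, 3.05 and 5.73 RPKM in shFOXA1, against 0, 0.0272 and 0.0306 RPKM in control, and rose by 3.12 ± 0.23 (adjusted p = 4.03e-08).

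**Figure D4:**
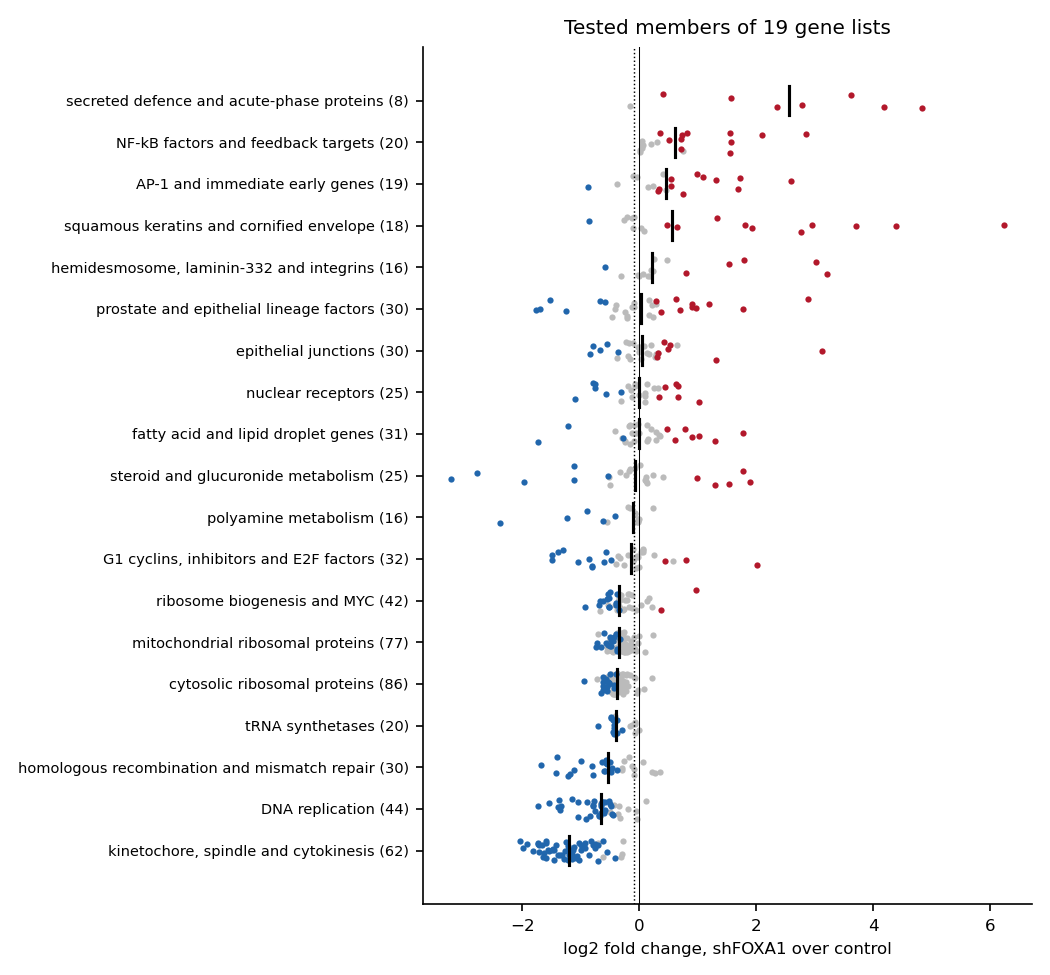
Each point is a tested member of 1 of 19 gene lists, by its log2 fold change, shFOXA1 over control, red where it rose, blue where it fell and grey where not called. Black bars mark list medians and the dotted line the median of all genes (-0.09), with the number of tested members in brackets. The mitotic list lies furthest left (median -1.20). The defence and squamous lists show only the 8 of 24 and 18 of 31 members that passed the filter, some through the groups in which they were high, so their medians are no measure of those lists.

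Transcription factors of prostate and epithelial lineage were split, with 10 of 30 tested (37 listed) higher and 6 lower. SOX9, a factor of prostate budding and progenitor cells, stood at 37.5, 37.3 and 38.2 RPKM in shFOXA1, against 3.85, 4.76 and 5.42 RPKM in control, and rose by 2.89 ± 0.14 (adjusted p = 3.17e-10). NFIB, a nuclear factor I protein that binds near FOXA1, stood at 35.4, 27.9 and 30.5 RPKM in shFOXA1, against 8.18, 8.34 and 9.77 RPKM in control. SPDEF, the prostate ETS factor, stood at 21.1, 22.2 and 20.7 RPKM in shFOXA1, against 77.0, 82.3 and 63.9 RPKM in control, with 29.3% left. Of other members, chosen after their values were seen, KLF5 fell by 1.53 ± 0.13 and EHF rose by 0.97 ± 0.08, both factors of epithelial cells. GATA2, a zinc finger factor, showed no call, at 81.0 ± 6.06 RPKM in shFOXA1 and 94.2 ± 9.70 RPKM in control. In the forkhead family, 3 of 17 tested members (41 listed) rose and 3 fell. Besides FOXA1 itself, FOXM1, the forkhead factor of mitotic transcription, fell to 2.53, 2.47 and 2.07 RPKM in shFOXA1, against 6.46, 8.66 and 9.56 RPKM in control, and FOXP1 fell by 1.0003 ± 0.15. FOXO3 stood at 34.8, 34.6 and 31.2 RPKM in shFOXA1, against 10.6, 12.6 and 13.99 RPKM in control, and the other 2 risers were FOXN3 and FOXO1. The relatives FOXA2 and FOXA3 did not pass the filter and stayed at or under 0.13 RPKM.

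Hormone receptors and steroid enzymes changed in both directions. Of 25 nuclear receptors tested (47 listed), 6 rose and 6 fell. THRB, a thyroid hormone receptor, stood at 4.33, 3.84 and 4.86 RPKM in shFOXA1, against 8.10, 10.4 and 11.3 RPKM in control, and fell by 1.10 ± 0.13. RXRA, the shared partner of many receptors, rose by 0.67 ± 0.10, PPARA rose by 0.66 ± 0.16, and the mineralocorticoid receptor NR3C2 fell by 0.78 ± 0.17. Without control 1, 2 nuclear receptors rose. Of 25 genes of steroid and glucuronide metabolism tested (38 listed), 5 rose and 6 fell. The glucuronosyltransferases divided by family: UGT2B11, UGT2B28, UGT2B17 and UGT2B15 fell by 3.22 ± 0.16, 2.77 ± 0.20, 1.97 ± 0.17 and 1.11 ± 0.15, whereas UGT1A1 and UGT1A6 rose by 1.302 ± 0.11 and 1.54 ± 0.24. UGT1A transcripts share exons and UGT2B genes are near copies, so reads within each family cannot be assigned with confidence. HSD3B1, which makes androgen precursors, and HSD17B2, which inactivates sex steroids, rose by 1.90 ± 0.20 and 1.78 ± 0.20. Of 4 tested kallikreins (15 listed), 0 were called, including KLK2, at 48.9 ± 4.01 RPKM in shFOXA1 and 51.7 ± 8.23 RPKM in control, and KLK4, at 105 ± 7.07 RPKM in shFOXA1 and 102 ± 20.9 RPKM in control. KLK3 (adjusted p = 0.0574) passed without control 3 (0.0211).

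Cell surface and matrix genes rose in part. Of 16 tested genes of hemidesmosomes, laminin-332 and integrins (20 listed), 5 rose and 1 fell, with 0 falls without control 2, shFOXA1 1 or shFOXA1 3. COL17A1 was near 0 in control and passed the filter through groups in which it was high, shFOXA1 among them. The count of rises is therefore no measure of the list. LAMB3, a laminin-332 chain, stood at 15.03, 15.2 and 14.8 RPKM in shFOXA1, against 1.27, 1.75 and 1.21 RPKM in control. COL17A1, the transmembrane collagen of hemidesmosomes, stood at 4.84, 3.56 and 5.03 RPKM in shFOXA1, against 0, 0.0462 and 0.0518 RPKM in control, and the laminin receptor chain ITGA6 stood at 17.1, 17.96 and 20.4 RPKM in shFOXA1, against 5.33, 6.51 and 6.32 RPKM in control. Of 30 epithelial junction genes tested (33 listed), 7 rose and 5 fell: CLDN1 and CTNNB1, β-catenin, rose by 1.32 ± 0.24 and 0.50 ± 0.09, and the epithelial splicing factor ESRP2 fell by 0.79 ± 0.12. Of 16 matrix proteases and inhibitors tested (32 listed), 6 rose and 3 fell, with the membrane protease TMPRSS2 down by 0.81 ± 0.09 and MMP15, ST14 and MMP7 up by 0.76 ± 0.11, 0.69 ± 0.12 and 0.99 ± 0.23. Without control 2, 3 of that list rose and 1 fell. Of 7 tested serpins (19 listed), 4 rose and 0 fell, among them the neuronal serpin SERPINI1 at 1.12 ± 0.15 and maspin, SERPINB5, at 0.60 ± 0.13.

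Growth factor pathways changed in part and in both directions. EGFR stood at 25.4, 25.4 and 29.95 RPKM in shFOXA1, against 5.97, 13.5 and 16.95 RPKM in control, with control 1 lowest, a rise of 1.23 ± 0.30 (adjusted p = 0.00635) that was lost with the 2 groups fitted alone (0.0672). Of 10 EGFR ligands, receptors and feedback genes tested (19 listed), 1 rose (10%, near the 9.52% of all genes) and 3 fell (30%, against 14.6%). The receptor's brakes SPRY4 and LRIG1 fell by 1.83 ± 0.20 and 0.88 ± 0.12. In the IGF axis, 3 of 8 tested (15 listed) rose and 2 fell. The adaptor IRS1 stood at 3.21, 3.04 and 4.05 RPKM in shFOXA1, against 0.443, 1.11 and 0.977 RPKM in control. The binding protein IGFBP3 stood at 204, 205 and 219.8 RPKM in shFOXA1, against 107, 118 and 106 RPKM in control, and the ligand IGF1 fell by 1.26 ± 0.21. In the WNT pathway, 5 of 22 tested (36 listed) rose and 2 fell, against 3 and 1 without control 1, and 1 fall without control 2 or shFOXA1 2. WNT11 was near 0 in control and passed the filter through groups in which it was high, shFOXA1 among them. The count of rises is therefore no measure of the list. The ligand WNT11 stood at 10.6, 13.3 and 10.1 RPKM in shFOXA1, against 0.0457, 0.0896 and 0 RPKM in control, and the receptor FZD1 at 19.2, 22.5 and 22.6 RPKM in shFOXA1, against 5.32, 7.06 and 6.46 RPKM in control. AXIN2, a feedback target of β-catenin, rose by 0.74 ± 0.15, and the receptor FZD5 fell by 0.86 ± 0.11. In the Notch pathway, 4 of 21 tested (27 listed) rose and 3 fell, with the receptor NOTCH1 up by 1.10 ± 0.17, the ligand JAG1 up by 0.46 ± 0.11 and the feedback gene NRARP down by 0.78 ± 0.18. The share of tested Notch genes that fell, 14.3%, was near the 14.6% of all genes. Without control 1 the Notch list gave 1 fall, and without control 3 it gave 6. The median change of the EGFR, WNT and Notch lists was -0.16, 0.04 and 0.01, and each changed sign in some settings.

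Lipid and iron genes moved both ways, and some polyamine genes fell. Of 31 fatty acid genes tested (42 listed), 7 rose and 3 fell. FADS2, the delta-6 desaturase of polyunsaturated fats, stood at 175, 161 and 169 RPKM in shFOXA1, against 42.6, 51.9 and 52.4 RPKM in control, and rose by 1.78 ± 0.13 (adjusted p = 5.88e-08). ACSL3, which activates fatty acids, stood at 24.3, 26.9 and 25.05 RPKM in shFOXA1, against 57.3, 63.997 and 59.0 RPKM in control, and the elongase ELOVL7 at 6.70, 7.01 and 8.37 RPKM in shFOXA1, against 23.2, 25.6 and 27.996 RPKM in control. These groups lay apart for all 3 enzymes. DGAT2, which makes triglyceride, rose by 0.91 ± 0.11. Of 16 polyamine genes tested (17 listed), 5 fell and 0 rose: besides ARG2 and SAT1, the synthases SMS and SRM fell by 0.89 ± 0.16 and 0.62 ± 0.12, and the transporter ATP13A2 fell by 0.42 ± 0.13. Of 22 iron and copper genes tested (27 listed), 6 rose and 3 fell, with the exporter SLC40A1, ferroportin, up by 1.15 ± 0.24, the metalloreductase STEAP4 up by 1.0002 ± 0.14 and the importer SLC39A8 down by 0.93 ± 0.10.

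Of the prostate and nuclear long noncoding RNAs, 10 of 20 tested (36 listed) fell and 3 rose (median -0.57). SCHLAP1, a prostate cancer transcript, stood at 7.06, 8.31 and 7.04 RPKM in shFOXA1, against 13.9, 15.98 and 15.4 RPKM in control, and DANCR at 74.3, 67.2 and 57.4 RPKM in shFOXA1, against 139, 119.5 and 114 RPKM in control. LINC00844, chosen after its value was seen, rose by 2.58 ± 0.58 and was the largest of the 3 rises. Of 10 tested neuronal and neuroendocrine genes (31 listed), 2 rose and 3 fell, with SYT4 and the repressor REST up (0.42 ± 0.09 for REST) and DDC, UCHL1 and SYT7 down, against 1 fall without control 2. The UCHL1 call (adjusted p = 0.0169) was lost without control 1, control 2, shFOXA1 2 or shFOXA1 3 (adjusted p of 0.0592 to 0.101).

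Some genes of protein synthesis fell, in numbers that depended on the setting. Of 20 cytosolic tRNA synthetases, which load amino acids onto tRNA and were all tested, 13 fell and 0 rose (median -0.40), with 5 falls under quantile normalisation and 5 with the 2 groups fitted alone. MARS stood at 47.1, 42.9 and 45.3 RPKM in shFOXA1, against 61.0, 64.7 and 59.1 RPKM in control, and FARSB fell by 0.71 ± 0.12. Of 42 tested (43 listed) ribosome biogenesis genes and their regulators, 14 fell and 2 rose, against 8 falls without control 1 or 2, 7 without shFOXA1 1 and 26 without control 3. NOP56, a core protein of small nucleolar particles, fell by 0.52 ± 0.11, and MXD1, a repressor of growth genes, rose by 0.97 ± 0.15.

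Short-gene lists depended on single control libraries. Of 86 cytosolic ribosomal protein genes tested (89 listed), 19 fell and 0 rose (median -0.38), but 3 fell without control 1, 12 without control 2, 9 without shFOXA1 1, 4 without shFOXA1 3 and 59 without control 3. Of 77 mitochondrial ribosomal protein genes, 16 fell, with 4 without control 1 and 47 without control 3. Of 35 proteasome genes tested (39 listed), 6 fell (17.1%, near the 14.6% of all genes), with 3 without control 1 or shFOXA1 3 and 20 without control 3. Of 37 complex I genes, 7 fell (18.9%), with 2 without control 1, 3 without control 2, 1 without shFOXA1 3 and 18 without control 3. Control 1 carried the most signal in short genes of the 6 libraries, and with the trend on gene length and GC content removed, 26 cytosolic ribosomal, 20 mitochondrial ribosomal, 8 proteasome and 8 complex I genes fell. No member of these 4 lists rose in the comparison of all 6 libraries.

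The last lists were mixed or changed at few members. Of 50 lysosome and autophagy genes tested (53 listed), 8 rose and 4 fell, led by CD68 and the autophagy protein WIPI1, at 1.08 ± 0.15. Those counts ranged over 3 to 8 rises and 0 to 7 falls with 1 library left out, with 0 falls without control 1 or control 2, 7 without control 3 and 3 rises without shFOXA1 3. In the BCL2 family, 2 of 16 tested (20 listed) rose and 0 fell, a share near the 9.52% of all genes. BMF and BCL2L11, at 0.96 ± 0.09 and 0.93 ± 0.11, were the risers, while BAK1, which like them promotes cell death, was called lower without control 3 (adjusted p = 0.0271) and under the replicate block (0.0323), and BNIP1 without control 3 (0.011). BCL2L11, or BIM, stood at 9.93, 9.62 and 10.7 RPKM in shFOXA1, against 4.17, 5.60 and 5.59 RPKM in control. Of 17 MHC class I presentation genes tested (23 listed), 5 rose and 2 fell: HLA-E, a heavy chain, and the regulator NLRC5 rose by 0.89 ± 0.16 and 0.63 ± 0.15, and CALR and PSME2 fell, against 1 fall without control 1, control 2, shFOXA1 1 or shFOXA1 3. HLA reads can be shared between loci and their alignment depends on the cell line's alleles. Of 13 S100 genes tested (18 listed), S100A8 and S100A9 rose and S100P and S100A11 fell, and the S100A11 call (adjusted p = 0.0347) was lost in several settings, such as quantile normalisation (0.333) and without control 1 (0.099). Without shFOXA1 3, 4 S100 genes rose.

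In KC7F2-treated cells the same FOXA1 shRNA was set against its own control libraries. There 1145 genes rose (8.88%) and 3105 fell (24.1%), or 1992 without KC7F2 control 1. Of the 1228 genes that rose without KC7F2, 827 rose again, 67.3% of that list and 72.2% of the rises with KC7F2, and 1 fell. Of the 1883 that fell, 1559 fell again, 82.8% of that list and 50.2% of the falls with KC7F2, and 1 rose. Short genes stood higher in KC7F2 controls 1 and 3 (0.45 and 0.35 log2 units), as in control 1 (0.49), so both comparisons share this tilt on the control side. With KC7F2, 71 of 86 cytosolic ribosomal protein genes fell. Without those 3 libraries, 571 genes rose and 1220 fell with KC7F2. How much of the overlap of falls rests on them was not tested. The difference between the FOXA1 effects without and with KC7F2 was called for 10 genes (0.0775%), higher without KC7F2 for 8 (0.062%) and lower for 2 (0.0155%), with 872 at an unadjusted p below 0.05. With 1 library left out those counts were 2 to 16 higher and 0 to 7 lower, with 16 and 7 without control 1. KRT16 stood at 4.32 ± 0.866 RPKM in shFOXA1 with KC7F2, against 0.0857 ± 0.0511 RPKM in control with KC7F2, a rise of 3.03 ± 0.17 that was 3.22 ± 0.24 smaller than without KC7F2 (adjusted p = 4.92e-06). ENC1, RGS4 and S1PR3 changed by 3.16 ± 0.08, 4.45 ± 0.15 and 3.75 ± 0.14 with KC7F2. Of the mitotic list, 57 of 62 fell there too (median -1.29), and DDC changed by -3.13 ± 0.18.

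Under HIF1A depletion the FOXA1 shRNA changed fewer genes: 680 rose (5.27%) and 1193 fell (9.25%), or 772 falls without shHIF1A 1 and 685 without shHIF1A 2, in libraries where FOXA1 mRNA itself changed by -0.89 ± 0.16, against -1.47 ± 0.16 without the HIF1A shRNA (difference -0.58 ± 0.22, adjusted p = 0.142). Of the 1228 genes that rose with FOXA1 knockdown alone, 355 rose there (28.9% of that list, 52.2% of the rises there) and 39 fell. Of the 1883 that fell, 576 fell there (30.6% and 48.3%) and 29 rose. The difference between the effects was called for 982 genes (7.61%), higher without the HIF1A shRNA for 574 (4.45%) and lower for 408 (3.16%), or 627 lower without control 3. The microRNA gene MIR30A, whose values are given below, was far lower in shHIF1A alone than in shFOXA1 with shHIF1A. The pGIPZ hairpin sits in a miR-30 backbone, and whether the arms of this comparison differed in vector was not tested. PI3 stood at 37.3 ± 4.44 RPKM in shFOXA1 with shHIF1A, against 28.5 ± 2.58 RPKM in shHIF1A, a change of 0.38 ± 0.21 (adjusted p = 0.266). NF-kB genes gave 3 rises and 1 fall of 20 there (median -0.05), and mitotic genes 32 falls of 62 (median -0.56). In all 3 backgrounds, 304 genes rose and 530 fell. RGS4, MGP, IVL and BARX2 rose by 2.30 ± 0.15, 2.59 ± 0.23, 2.07 ± 0.20 and 2.76 ± 0.20 under HIF1A depletion (adjusted p at most 2.94e-06).

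**Figure D5:**
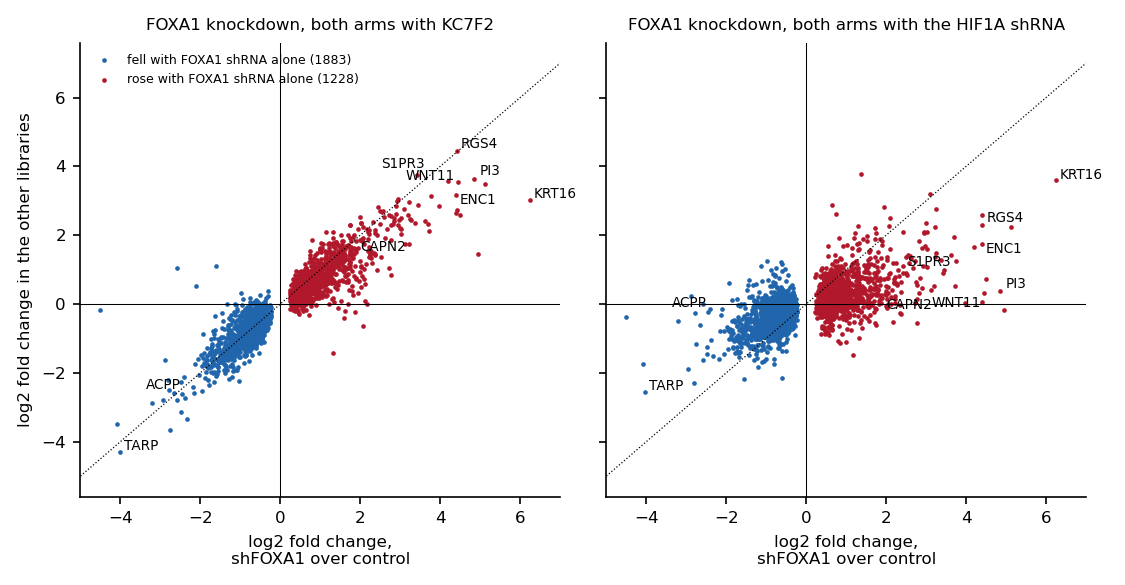
Each point is 1 of the 3111 genes that rose (red) or fell (blue) with the FOXA1 shRNA alone, by that log2 fold change on the horizontal axis and by its log2 fold change for the same shRNA in KC7F2-treated cells (left) or in cells with the HIF1A shRNA (right) on the vertical axis, with equality as a dotted line. With KC7F2 most genes lie near the line. With the HIF1A shRNA many lie near 0, among them PI3 and WNT11, while RGS4 stays up and TARP stays down.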

How the data were processed

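RNA of LNCaP cells was sequenced in 18 libraries of 6 groups of 3. The deposited values are RPKM per gene, made by the authors, and reads were aligned to hg38 with STAR, per the submitters' processing notes. Which program and annotation made the counts, and whether strand was used, is not given in the sources used here. Of the 26475 lines, 32 held no value.

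Log2(RPKM + 0.5) of genes reaching 1 RPKM in 3 or more libraries was fitted with limma 3.58.1 (R 4.3.3; empirical Bayes with a trend on level, 6 groups, 12 residual degrees of freedom), with two-sided p-values adjusted by Benjamini-Hochberg over 12900 genes and calls at 0.05. Errors of log2 changes are standard errors. Coordinates came from GENCODE 29 by symbol (23834 matched). Read depth was recovered from steps of low values in genes of at most 200 nt, with values whole within 2%. Alternatives were the pseudocount, filter, scaling, length and GC trend, replicate block and libraries left out.

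The members and gene lists were chosen with earlier results of these data known. Genes named were FOXA1, HIF1A, the 20 largest rises and falls (called, at least 2 RPKM in 1 group, groups apart), the 8 largest changes of mean RPKM each way among called genes of at least 300 nt, up to 4 per list by smallest p, and 6 per difference between backgrounds. Other list members were chosen after their values were seen. Some results that the rule named, and some motifs searched, are not reported here.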

Additional observations from a re-analysis of the deposited data

Results flagged for a closer look

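The FOXA1 effect differed between backgrounds for the following genes, by the test of the difference itself (limma, adjusted over 12900 genes), and the 6 with the smallest p per background are given. Without minus with KC7F2, the difference was 3.22 for KRT16, 1.22 for ENC1, 1.37 for NRCAM, 1.15 for CD24, a surface glycoprotein, 1.62 for S100A9 and -0.84 for MAF, a leucine zipper factor. KRT16, ENC1, NRCAM and S100A9 rose in both settings, and CD24 rose by 1.31 ± 0.14 without KC7F2 and changed by 0.16 ± 0.14 with it (adjusted p = 0.383). MAF changed by 0.15 ± 0.09 without KC7F2 (adjusted p = 0.226) and rose by 0.99 ± 0.09 with it (adjusted p = 3.79e-07). The KRT16 and ENC1 differences kept their call in every setting tried. Those of MAF, NRCAM, CD24 and S100A9 did not: without the 3 libraries with more short-gene signal their adjusted p was 0.318 for MAF and NRCAM, 0.354 for CD24 and 0.403 for S100A9. Leaving out single libraries lost MAF in 6 cases, NRCAM in 11, CD24 in 9 and S100A9 in 11 of the 12, the replicate block lost CD24 and S100A9 (0.0606 for both), and pseudocount 0.1 lost NRCAM, CD24 and S100A9 (0.215, 0.0546 and 0.119).

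Without minus with the HIF1A shRNA, the difference was 2.65 for ENC1, 4.13 for WNT11, 4.46 for PI3, 1.73 for the calpain subunit CAPN2, -2.24 for ACPP, prostatic acid phosphatase, and -7.13 for the microRNA gene MIR30A. ENC1 still rose with the HIF1A shRNA, by 1.74 ± 0.08, whereas WNT11 changed by 0.31 ± 0.17 and ACPP by -0.22 ± 0.10 there (adjusted p = 0.26 and 0.172). MIR30A stood at 4729 ± 631 RPKM in shFOXA1 with shHIF1A, against 27.9 ± 10.9 RPKM in shHIF1A, and at 8225 ± 1063 RPKM in shFOXA1, against 6641 ± 803 RPKM in control. The pGIPZ vector carries its hairpin in a miR-30 backbone, and its part in the MIR30A values was not tested.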

How the results depend on the processing

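No named gene that was called changed sign in any setting, and no uncalled one was called in the opposite direction. Sign changes of uncalled genes without a call were not counted. Of 192 named results, at most 31 lost their call in 1 setting, which was the fit of the 2 groups alone, with 762 rises and 934 falls over all genes and fewer residual degrees of freedom. Leaving out 1 library of either group gave 944 to 1239 rises and 1330 to 2697 falls. With KC7F2, median-ratio scaling gave 1875 rises and 1824 falls, quantile normalisation 1822 falls, and leaving out the 3 libraries with more short-gene signal 571 rises and 1220 falls. Leaving out 1 library gave 819 to 1219 rises and 1992 to 3102 falls with KC7F2, and 480 to 606 rises and 685 to 1142 falls with the HIF1A shRNA. Genes whose FOXA1 effect was higher without KC7F2 numbered 8, and 2 with pseudocount 0.1, 20 with pseudocount 1, 18 with no filter, 4 with median-ratio scaling, 16 with quantile normalisation, 20 with the length and GC trend removed, 2 without the 3 libraries and 2 to 16 with 1 library left out. Genes whose effect was lower numbered 2, and 1, 7, 9, 4, 9, 8, 0 and 0 to 7 in the same settings. For the HIF1A shRNA those ranges were 409 to 577 and 276 to 627. The cause of these shifts was not tested. The replicate block gave 1299 rises and 2043 falls. Deviations of same-numbered shFOXA1 and control libraries had r of -0.06, -0.03 and 0.05, against -0.16 to 0.17 for other pairs. With 3 libraries per group, these values cannot tell whether the numbers pair them. Under the block KLK3 passed (adjusted p = 0.0255). The shFOXA1 libraries hold fewer reads than those of control, so low genes rest on fewer reads there.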

Other observations

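Gene classes that belong to none of the lists were counted as well. Over all tested genes 9.52% rose and 14.6% fell. Of 116 long intergenic noncoding RNA genes tested, 12 rose and 12 fell, and of 219 antisense genes 11 rose and 17 fell, which without strand information cannot be told apart from their partners. Of 196 small nucleolar RNA genes, 3 rose and 6 fell, with a median change of -0.40, against -0.09 over all genes. The summed level of the 31 squamous genes with a value, tested or not, was 202 to 233 RPKM in shFOXA1 and 122 to 135 RPKM in control. That of the 63 mitotic genes with a value was 270.3 to 284 RPKM in shFOXA1 and 531 to 673 RPKM in control.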
